A study of Mus musculus with 6 samples.

Results

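The Gtf2i family of the mouse comprises Gtf2i, Gtf2ird1 and Gtf2ird2, which lie close together on chromosome 5, with Ncf1 between Gtf2ird2 and Gtf2i. Every probe set of the expression array whose only gene symbol was 1 of these 3 was taken, and each was kept on its own. These 3 genes, of 18193 with a probe set of their own, had 7 of the 45037 probe sets tested: 4 for Gtf2i (1425628_a_at, 1460279_a_at, 1431675_a_at and 1431676_x_at), 2 for Gtf2ird1 (1451899_a_at and 1460364_at) and 1 for Gtf2ird2 (1418343_at). All 7 were measured on all 6 arrays, and none was filtered out.

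The arrays came from mouse embryonic stem cells of the EB3 line, grown with LIF, in which a FLAG-tagged human GTF2I coding sequence, without its flanking noncoding parts, had been placed at Rosa26 and was transcribed when tetracycline was removed. The 3 clones, A1, B3 and C6, each gave 1 induced sample (24 h without tetracycline) and 1 uninduced sample (0 h), so that the induced group and the uninduced group hold 3 arrays each. Induced and uninduced cells carried the same transgene, and no line without it was analysed here. One field of the sample labels names GTF2IRD2 in place of GTF2I as the overexpressed gene, whereas the titles name GTF2I, and the titles were followed here. Each clone is 1 line with 1 array per state, so the p-values measure the spread between these clones and arrays. Whether the mouse probe sets also detect the human transcript was not tested.

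TFII-I, the product of Gtf2i, is a transcription factor that is also found in the cytoplasm, and it is phosphorylated by several kinases in response to growth factor signals. Its paralogues Gtf2ird1 and Gtf2ird2 encode proteins that share the repeated I-repeat domains of TFII-I, which contribute to DNA binding and protein contacts. The human counterparts lie in the chromosomal segment that is deleted in Williams-Beuren syndrome, and changes in the family are studied in connection with the craniofacial and cognitive features of that syndrome.

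All values were log2 RMA values as deposited, on a scale where a difference of 1 is a doubling. Array medians ran between 5.06 and 5.11, and pairs of arrays correlated at r between 0.991 and 0.996 over all probe sets. The 8 embryonic stem cell markers had mean levels between 10.9 and 14.2, and the range was 2.58 to 6.70 for the 6 fibroblast markers and 4.15 to 6.05 for the 7 measured markers of differentiated cells. In these bulk samples, fewer cells of a type and less RNA per cell cannot be told apart. The induced-minus-uninduced differences of clone A1 ran against those of the other clones over all probe sets (r = -0.39 with B3 and r = -0.48 with C6), whereas B3 and C6 correlated at r = 0.46. The 3 clones moved the same way in 18.8% of all probe sets, and A1 moved opposite to both others in 41.6% of them and in 60.3% of the 17168 with a mean level of 6 or more. Of the stem cell markers, 7 had a mean difference below 0 and 1 above it, with a median of -0.02, and none was called for induction. Over all 18193 genes, 9234 had a mean difference below 0. By clone, 4, 3 and 6 of the markers were lower on induction in A1, B3 and C6. The labels were followed for A1. An exchange of its induced and uninduced labels would turn the sign of every A1 difference given below, and these arrays offer no test of it. Neither the part of the markers nor the cause of the opposite course of A1 was tested, and induction is therefore given below per clone, over all 3 clones and over B3 and C6 alone.

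The promoters of the paralogues are shown first, because each repeats a short motif that the promoter of Gtf2i lacks. The 250 bases upstream of the transcription start of each gene (RefSeq, GRCm38.p6) were searched on both strands for GGATTA, the core that goosecoid-type homeodomain factors and Gtf2ird1 protein itself are known to bind, and for CACGTG, its own reverse complement and the E-box of factors such as USF1 and USF2, which are known to bind DNA together with TFII-I. Both motifs were picked after the sequences had been seen. The Gtf2ird1 promoter held 4 matches to GGATTA, lying 236 and 157 bases before the start as its reverse complement TAATCC and 106 and 69 bases before it as GGATTA, shown in capitals within chr5:134456768-134456964, minus strand.
Gtf2ird1: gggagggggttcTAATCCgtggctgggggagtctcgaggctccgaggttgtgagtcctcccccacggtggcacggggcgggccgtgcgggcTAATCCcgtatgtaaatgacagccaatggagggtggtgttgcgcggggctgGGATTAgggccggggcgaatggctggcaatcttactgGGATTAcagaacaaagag
The motif was present in 6.25% of the 32851 promoter windows of the same length, and 3 or more matches were present in 8 of them (0.0244%). The Gtf2ird2 promoter held 3 matches to CACGTG, which are 185, 161 and 83 bases before the start, shown in capitals within chr5:134183841-134183972, plus strand.
Gtf2ird2: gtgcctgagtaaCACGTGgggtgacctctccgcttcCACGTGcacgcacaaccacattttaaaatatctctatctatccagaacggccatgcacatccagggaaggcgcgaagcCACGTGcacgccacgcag
CACGTG was present in 6.02% of the windows, and 3 or more matches were present in 20 of them (0.0609%). The window upstream of Gtf2i held neither motif, that of Gtf2ird1 held no CACGTG, and that of Gtf2ird2 held no GGATTA. The upstream windows were alike in base composition, with a GC share of 63.2% for Gtf2i, 66.0% for Gtf2ird1 and 64.0% for Gtf2ird2. A match is a run of letters, and no measurement of binding was made here.

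The first question was whether the mouse family changed when the human GTF2I transgene was induced. Over all 3 clones none of the 7 probe sets passed the test (limma, induced against uninduced, adjusted p = 1 for each), and the same held of all 45037 probe sets, of which 0% were called. At an unadjusted p under 0.05 there were 436 probe sets in all (0.968%), of which 1 was a family member. Fitting the clone as a block also called 0%.

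Gtf2i was measured by 4 probe sets that gave different pictures. The log2 level of 1425628_a_at was 10.46, 10.79 and 10.80 in induced A1, B3 and C6, and 10.31, 10.69 and 11.02 in the uninduced samples of the same clones. The 2 states overlapped and averaged 10.68 ± 0.19 induced and 10.67 ± 0.36 uninduced (SD, n = 3 each). The difference of 0.0094 had a 95% interval of -0.43 to 0.45, and a change within these bounds was not excluded by this fit. With the clone as a block, the interval was -0.25 to 0.27. A1 and B3 were higher on induction, by 0.15 and 0.10, and C6 was lower (-0.22).

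The probe set 1460279_a_at was higher in induced A1 and lower in induced B3 and C6 than in the uninduced sample of each clone. It read 9.41, 9.22 and 9.47 in induced A1, B3 and C6, against 9.19, 9.70 and 10.03 in the uninduced samples. The 3 induced arrays lay close together, while the uninduced ones spread over a wider range, and the group means were 9.37 ± 0.13 induced and 9.64 ± 0.42 uninduced (SD, n = 3 each). Clone by clone the differences were 0.23 (A1), -0.48 (B3) and -0.56 (C6), which gave -0.27 over all 3 clones (95% interval -0.74 to 0.20).

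The remaining pair, 1431675_a_at and 1431676_x_at, are assigned the same source sequence by the platform annotation and are not counted as independent readings. The level of 1431675_a_at was 6.45, 6.09 and 6.21 in induced A1, B3 and C6, against 6.51, 6.77 and 6.37 uninduced. It was lower on induction in each clone, by little in A1 (-0.06) and C6 (-0.15) and most in B3 (-0.68), with a mean difference of -0.30 (95% interval -0.63 to 0.03). The level of 1431676_x_at was 6.06, 5.47 and 5.78 induced, against 6.08, 6.35 and 6.15 uninduced. Its mean over the 6 arrays, 5.98, was just under the cut of 6 applied in some fits. This was the family member whose induced and uninduced arrays did not overlap, although the gap rested on A1 arrays that were almost equal (-0.01). Groups did not overlap in either direction for 4.55% of all probe sets. Its mean difference of -0.42 (95% interval -0.79 to -0.05, SE 0.16) had an unadjusted p of 0.0308 and an adjusted p of 1 in limma, and its difference of -0.87 in B3 was larger in size than that of 99.6% of all probe sets.

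**Figure D1:**
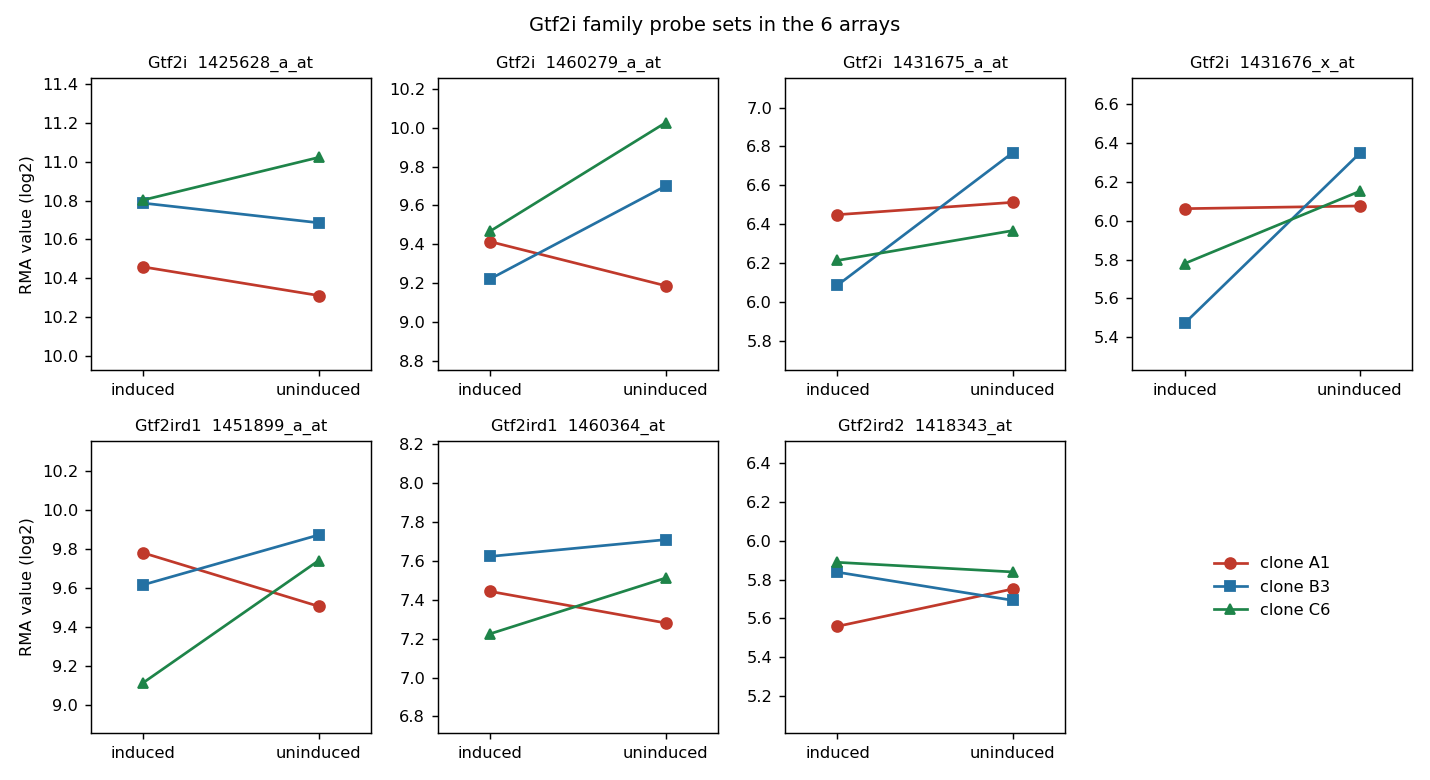
Log2 RMA level of each of the 7 family probe sets on the 6 arrays, with induced samples left of uninduced samples and a line joining the arrays of 1 clone. The lines of B3 and C6 run the same way in 1460279_a_at, 1431675_a_at, 1431676_x_at, both Gtf2ird1 probe sets and Gtf2ird2, and induced lies apart from uninduced only in 1431676_x_at, where A1 changed by -0.01.

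Gtf2ird1 encodes a DNA-binding regulator named for its resemblance to TFII-I, and both of its probe sets gave the responses of the clones in 1 order. The probe set 1451899_a_at read 9.78, 9.62 and 9.11 in induced A1, B3 and C6, against 9.51, 9.87 and 9.74 uninduced. Induced C6 was the lowest of the 6 arrays, and the states overlapped. The differences were 0.27 (A1), -0.26 (B3) and -0.63 (C6), with a mean of -0.20 over the 3 clones (95% interval -0.63 to 0.22). The probe set 1460364_at read 7.44, 7.62 and 7.23 induced, against 7.28, 7.71 and 7.51 uninduced. Its differences had the same signs and were smaller, at 0.16 (A1), -0.09 (B3) and -0.29 (C6), with a mean of -0.07 (95% interval -0.41 to 0.27). The probe sets correlated at r = 0.797 over the 6 arrays, which share RNA and array with each other.

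Gtf2ird2, whose protein combines I-repeats with a sequence derived from a transposon, varied least of the 7 probe sets. Its level was 5.56, 5.84 and 5.89 in induced A1, B3 and C6, against 5.75, 5.69 and 5.84 uninduced. The means were 5.76 ± 0.18 induced and 5.76 ± 0.07 uninduced (SD, n = 3 each), with a difference of 0.00062 (95% interval -0.27 to 0.27). This level was the lowest of the 7 probe sets and below the cut of 6 applied in some fits. The range over the 6 arrays was 0.33, below the median range of 0.39 over all probe sets. It was 0.71 for 1425628_a_at, 0.84 for 1460279_a_at, 0.87 for 1431676_x_at and 0.76 for 1451899_a_at. Here A1 was lower on induction (-0.19), whereas B3 (0.15) and C6 (0.05) were higher, signs opposite to those of Gtf2ird1.

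**Figure D2:**
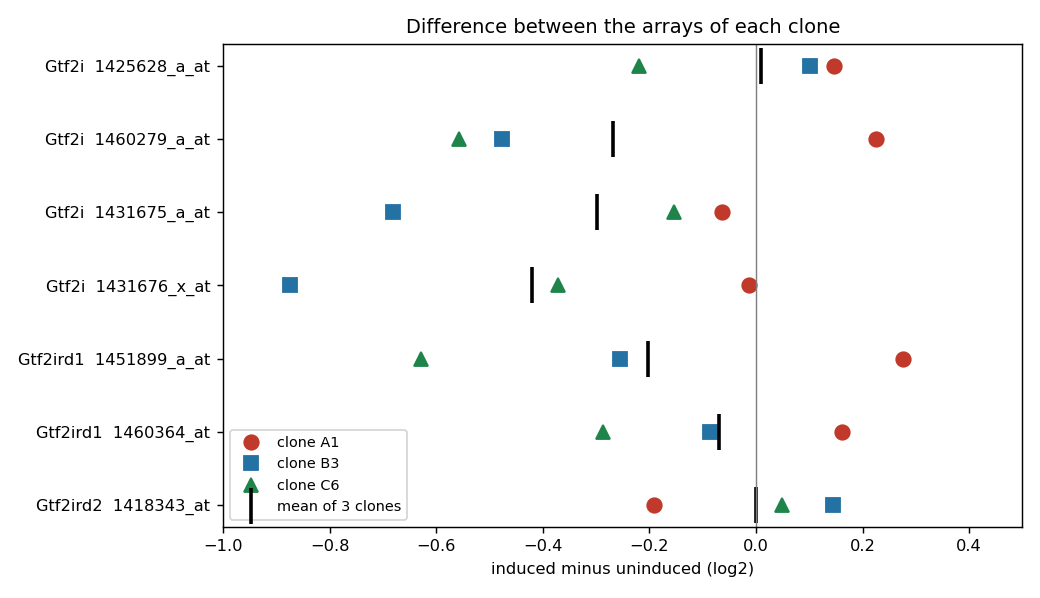
Induced minus uninduced log2 level of each family probe set in clones A1, B3 and C6, the bar marking their mean. A1 lies above 0 and both other clones below it for 1460279_a_at and both Gtf2ird1 probe sets, and Gtf2ird2 has the opposite arrangement.

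When A1 was left out, a choice made after its course had been seen, and the clone was fitted as a block, 1 of the 7 probe sets was called, against 2.18% of all probe sets in either direction and 1.31% in the lower direction. It was Gtf2i 1460279_a_at, at -0.52 (95% interval -0.76 to -0.28, limma adjusted p = 0.045), and the clones B3 and C6 both showed this direction. The call rested on the block, since the fit of the same 4 arrays without it gave a limma adjusted p of 0.508. With the block, a probe set's own spread comes only from the disagreement of its B3 and C6 differences. The other Gtf2i probe sets gave -0.62 for 1431676_x_at (limma adjusted p = 0.0508), -0.42 for 1431675_a_at (adjusted p = 0.163) and -0.06 for 1425628_a_at (adjusted p = 0.871). The interval of 1425628_a_at, -0.33 to 0.21, did not reach the estimate of 1460279_a_at for the same gene. Gtf2ird1 gave -0.44 for 1451899_a_at (limma adjusted p = 0.106) and -0.19 for 1460364_at (adjusted p = 0.465), and Gtf2ird2 gave 0.10 (adjusted p = 0.734). At an unadjusted p under 0.05 there were 4 of the 7, where 16.1% of all probe sets passed. These 4 include both 1431675_a_at and 1431676_x_at, which share a source sequence and are not independent readings.

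**Figure D3:**
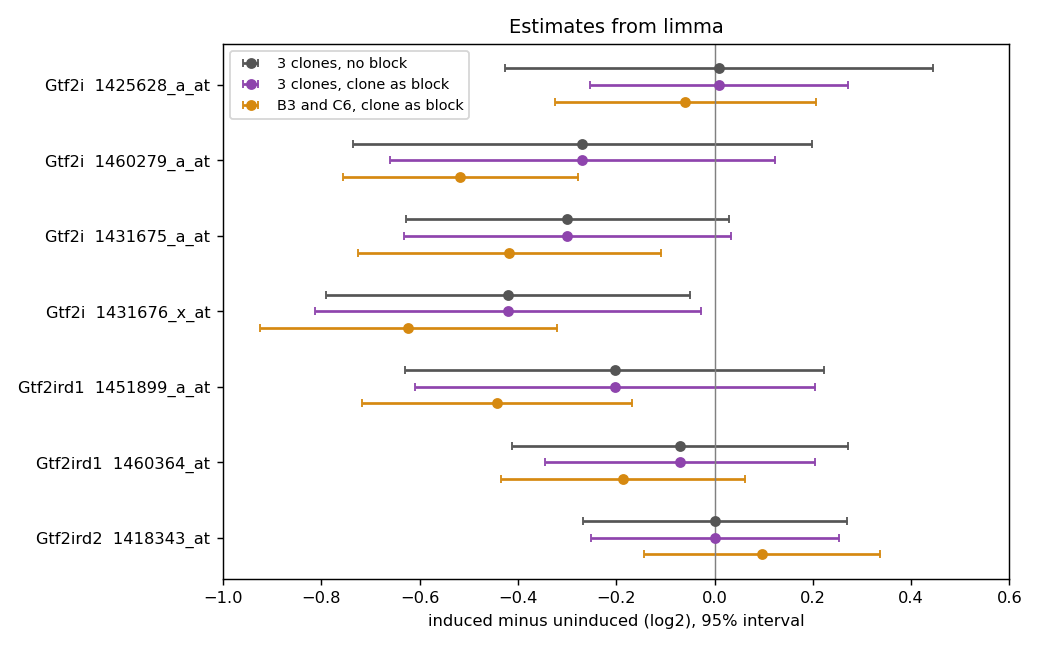
Induced minus uninduced log2 difference of each family probe set with its 95% interval, from 3 clones without a block, from 3 clones with the clone as a block, and from B3 and C6 with the block. Leaving out A1 shifts 1460279_a_at to -0.52 and 1451899_a_at to -0.44.

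The response of A1 was then set against the mean response of B3 and C6. This contrast was set up after A1 had been seen to run against both others. Since A1 gives a single difference, a probe set's own spread in it comes from B3 and C6 only. limma combined that spread with a variance estimated over all probe sets. No family member passed, while 2.71% of all probe sets did. The same contrast for B3 or for C6 gives no separate reading. A probe set's own spread there comes from A1 and the remaining clone, which had already been seen to run against each other. Gtf2i 1460279_a_at came nearest, with a response 0.74 higher in A1 (95% interval 0.33 to 1.16, limma adjusted p = 0.0713), followed by Gtf2ird1 1451899_a_at at 0.72 (95% interval 0.24 to 1.19, adjusted p = 0.117) and Gtf2i 1431676_x_at at 0.61 (adjusted p = 0.219). For Gtf2ird2 the response was lower in A1, at -0.29 (limma adjusted p = 0.491). Of the 7 members, 4 moved in A1 opposite to both other clones. This was shared by 41.6% of all probe sets and by 60.3% of those with a mean level of 6 or more. The 3 members with an unadjusted p under 0.05 compare with 17.1% of all probe sets.

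**Figure D4:**
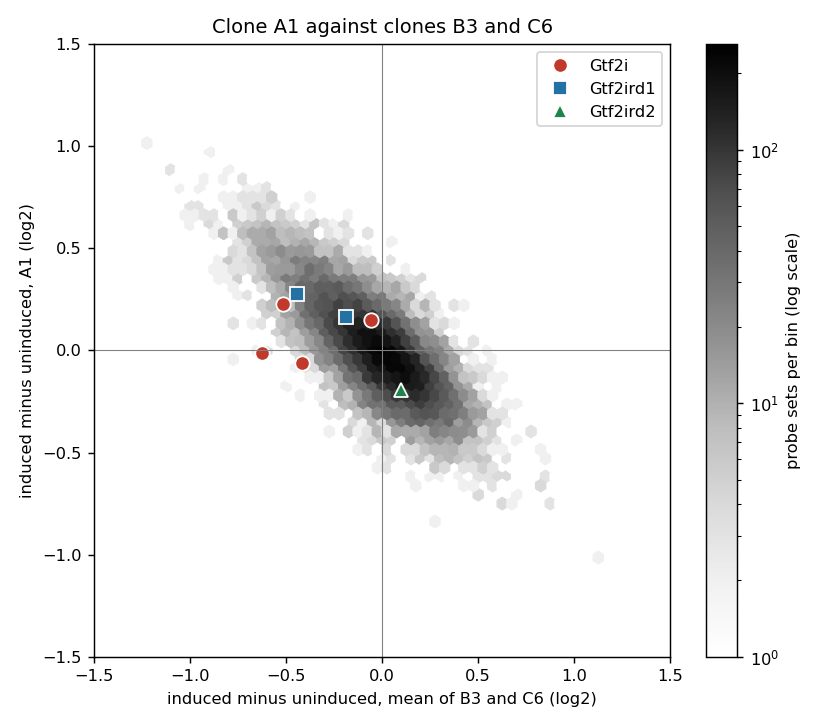
Induced minus uninduced log2 difference in A1 (vertical axis) against the mean of B3 and C6 (horizontal axis). The 17168 probe sets with a mean level of 6 or more are shaded by number, and 17 of them lie beyond the axes. The 7 family probe sets are marked, of which Gtf2i 1431676_x_at (mean 5.98) and Gtf2ird2 (mean 5.76) are not part of the shaded cloud. The cloud slopes downward, and Gtf2i 1460279_a_at and both Gtf2ird1 probe sets lie in its upper left part.

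Levels were then compared between clones over both states, and no family member was called in the limma F-test, where 1.13% of all probe sets were. The mean of the 2 arrays of a clone for 1425628_a_at was 10.91 in C6, 10.74 in B3 and 10.39 in A1, and the arrays of the 3 clones did not overlap, which held for 13.4% of all probe sets. C6 was above A1 by 0.53, B3 above A1 by 0.35 and C6 above B3 by 0.18, with an adjusted p of 0.243 in that limma test. For 1460279_a_at the order was the same, with 9.75 in C6, 9.46 in B3 and 9.30 in A1 (limma adjusted p = 0.523), although its arrays overlapped. The pair of Gtf2i probe sets that shares a source sequence had A1 highest instead. The means were 6.29 in C6, 6.43 in B3 and 6.48 in A1 for 1431675_a_at (limma adjusted p = 0.809). For 1431676_x_at they were 5.97 in C6, 5.91 in B3 and 6.07 in A1 (limma adjusted p = 0.902). Gtf2ird1 1451899_a_at had 9.43 in C6, 9.75 in B3 and 9.64 in A1 (limma adjusted p = 0.695), and Gtf2ird2 had 5.86 in C6, 5.77 in B3 and 5.66 in A1 (adjusted p = 0.679). The test separated the clones in none of these orders.

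Probe sets of 1 gene were set against each other within each array, where the size of the gap depends on the probes and only its change can be read. The gap of 1425628_a_at over 1460279_a_at was 1.04, 1.56 and 1.33 in induced A1, B3 and C6, against 1.12, 0.99 and 1.00 uninduced. It widened on induction by 0.58 in B3 and 0.34 in C6 and changed by -0.08 in A1, since 1425628_a_at differed by 0.10 in B3, where 1460279_a_at differed by -0.48, and by less than 1460279_a_at in C6 (-0.22 and -0.56). The change of the gap was not tested. The gap of Gtf2ird1 1451899_a_at over 1460364_at was 2.34, 1.99 and 1.89 induced, against 2.23, 2.16 and 2.23 uninduced, and narrowed in B3 and C6. Over the 6 arrays 1425628_a_at and 1460279_a_at correlated at r = 0.697, the pair that shares a source sequence at r = 0.924, and 1425628_a_at with 1431675_a_at at r = -0.385. Between genes, 1425628_a_at correlated with Gtf2ird2 at r = 0.633 and with Gtf2ird1 1451899_a_at at r = -0.04. These are descriptions over 6 arrays from 3 clones, and no p is given for them.

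The genes whose profile over the 6 arrays was most like that of each member were ranked by Pearson's r among 5552 genes. For Gtf2i 1425628_a_at they were Lef1 (r = 0.994), Utp20 (0.987), Lor (0.987), Usp19 (0.982) and 2010204K13Rik (0.981), and the most opposite was Dusp12 (-0.994). Lef1, a DNA-binding partner of beta-catenin, read 5.64, 6.24 and 6.43 in induced A1, B3 and C6, against 5.37, 6.17 and 6.87 uninduced, and so followed the same order of arrays. For Gtf2ird1 1451899_a_at the nearest was Bak1 (r = 0.997), a pore-forming protein of mitochondrial apoptosis. Its differences of 0.77 (A1), -0.78 (B3) and -1.74 (C6) had the signs of Gtf2ird1 and a larger size. Slc7a5, a subunit of an amino acid transporter, followed (r = 0.991), as did Marcksl1, Ankrd13a and Pcm1, while Zdhhc6 was the most opposite (-0.998). For Gtf2ird2 the nearest were Sgms1 (r = 0.993), Myb (0.980), Zfp59 (0.972), Cttnbp2nl (0.971) and Lima1 (0.963), and Tab1 was the most opposite (-0.984). These are the extremes of 5552 values over 6 arrays and are given as a description.

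**Figure D5:**
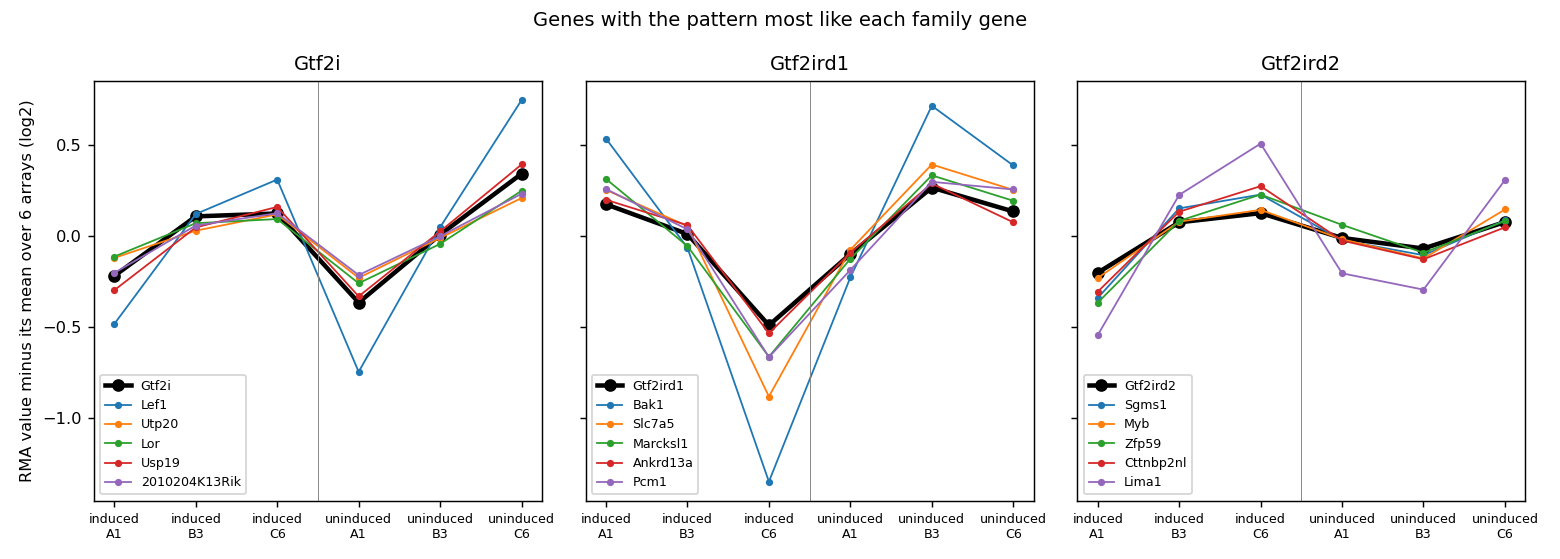
Log2 level, centred on its mean over the 6 arrays, of 1 probe set of each family gene and of the genes with the highest Pearson correlation to it. Gtf2i and Lef1 share the order of arrays, with uninduced A1 lowest and uninduced C6 highest.

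Genes tied to the family by known function or position were described next. Of 27 listed partners and kinases of TFII-I, 24 had a probe set with 1 symbol. Their mean difference was above 0 for 7 and below 0 for 17 over the 3 clones, with a median of -0.03 beside -0.0019 over all 18193 genes, and none was called. Hmg20b, a subunit of a histone demethylase complex of which TFII-I has been found a part, had the lowest value among those named, -0.25. It read 7.41, 7.06 and 6.96 in induced A1, B3 and C6, against 7.06, 7.44 and 7.68 uninduced. Without A1 it gave -0.55 (limma adjusted p = 0.0521). Usf2, an E-box-binding factor, was the list's 1 call of 24 in the contrast of A1 with the other clones, which called 488 of the 18193 genes (2.68%). It read 8.87, 8.53 and 8.44 induced, against 8.13, 8.87 and 8.88 uninduced, so that A1 was higher on induction by 0.75 while B3 and C6 were lower (-0.33 and -0.44). Rcor1, the corepressor CoREST, was the list's 1 call of 24 for levels between clones (limma adjusted p = 0.0309), where 304 of all genes were called (1.67%), and is named for that after its values were seen. It read 8.25, 7.41 and 8.23 induced, against 8.46, 7.35 and 8.33 uninduced, so that B3 was the low clone.

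The 14 genes described as targets of TFII-I factors were all measured, and none was called in any of the comparisons. Of all 18193 genes, 0 were called over the 3 clones, and 81 higher and 248 lower in B3 and C6 with the block. The test of levels called 1.67% of them. At such shares, an absence of calls among 14 genes says little about these genes. Over the 3 clones 4 had a mean difference above 0 and 10 below it, with a median of -0.03. Gsc, the homeobox gene goosecoid, had a mean level of 3.44, where the lower quartiles of the arrays ran from 3.66 to 3.73, so its difference of -0.17 is between readings near the bottom of the scale. Hspa5, a chaperone of the endoplasmic reticulum, differed by 0.07, Calr, which encodes calreticulin, by -0.13, and Ezh2, a histone methyltransferase, by -0.09.

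Of 26 other genes of the region that corresponds to the Williams-Beuren deletion, 24 were measured, with 12 above and 12 below 0 and a median of -0.0048. None was called in any comparison, which at the shares given above for all genes says little about a list of 24. The largest mean differences among those named were -0.26 for Fzd9, a Wnt receptor, and -0.22 for Mettl27. The response of A1 was above that of the other clones by 0.73 for Vps37d (limma adjusted p = 0.0792), 0.54 for Bcl7b (adjusted p = 0.166) and 0.54 for Mlxipl (adjusted p = 0.173). Along the chromosome the genes nearest to the family are Castor2, Rcc1l, Gtf2ird2, Ncf1, Gtf2i, Gtf2ird1 and Clip2, in this order. None of the 4 measured neighbours was called, which says as little for so few genes, and they did not share a pattern. Castor2 had differences of -0.31, 0.17 and 0.08 in A1, B3 and C6, with the signs of Gtf2ird2. Rcc1l had 0.06, -0.07 and -0.35, with the signs of Gtf2ird1, whereas Ncf1, a subunit of the phagocyte oxidase, had 0.25, 0.28 and 0.05. Clip2, a microtubule-binding protein, had 0.20, 0.19 and -0.25, with the signs of Gtf2i 1425628_a_at.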

How the data were processed

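Expression was measured on Affymetrix mouse whole-genome arrays. The deposited values are log2 RMA values that the authors made with the Bioconductor package affy (named in the submitters' processing notes; version not given in the sources used here), which corrects background, quantile-normalizes and summarises probes by set. They were used as deposited, after 64 control probe sets were left out of 45101. RMA forces the arrays to one distribution, so a global shift would not be seen.

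Probe sets were named through the platform annotation: 34945 had 1 symbol, 932 several and 9160 none, and only those with 1 were named. limma 3.58.1 in R 4.3.3 tested induced against uninduced over 6 arrays without a block, with Benjamini-Hochberg adjustment over 45037 probe sets and a threshold of 0.05. The clone as a block, B3 and C6 alone, the A1 contrast (3 clone differences) and a limma F-test of clone levels followed, and the script was tested on simulated data. The methods' t-test was an alternative. Same-clone arrays come from the same cell line clone, and their deviations from the group means correlated at r = 0.19 (A1), 0.53 (B3) and 0.31 (C6). The members, lists and tests were chosen with earlier results of these data known. Named were all members, the 5 most and 3 least similar genes of each, and from each list the 4 genes with the smallest p in the induction test and in the A1 contrast, each by its probe set with the highest mean, of which those described are a selection. The arrays' number limits the precision: the median half-width of a 95% interval was 0.32 among probe sets with a mean of 6 or more.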

Additional observations from a re-analysis of the deposited data

Results flagged for a closer look

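Of the genes described, Usf2 and Esrrb passed the limma test of A1 against B3 and C6, as did 1219 of all 45037 probe sets (2.71%). Only the family, the listed genes and the neighbours were looked up in this test, not the genes ranked by likeness. A1 gives a single difference in this contrast, which was set up after A1 had been seen to run against the others, so the values are a description of these clones. Esrrb belongs to the list of 8 stem cell markers, which did not share 1 direction. The response of A1 was lower for Sox2 (-0.124), Zfp42 (-0.0149), Tdgf1 (-0.0592) and Dppa5a (-0.194). It was higher for Pou5f1 (0.465), Nanog (0.282) and Klf4 (0.329), by less than for Esrrb. The response of Usf2 (1418241_at) was 1.13 higher in A1 than the mean of B3 and C6 on the log2 scale (limma adjusted p = 0.0186), the clones differing by 0.75 (A1), -0.33 (B3) and -0.44 (C6). The response of Esrrb (1436926_at), a nuclear receptor of pluripotent cells, was 1.02 higher in A1 (limma adjusted p = 0.0347), the clones differing by 0.51 (A1), -0.36 (B3) and -0.65 (C6).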

How the results depend on the processing

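The absence of calls over all 3 clones held with the replicate block (0 of all probe sets and 0 of the family), the methods' t-test after Benjamini-Hochberg adjustment (867 probe sets, none of the family, had an unadjusted p under 0.05) and the other settings run, except that leaving out A1 with the clone as a block gave 981 calls in all and 1 in the family. Without a block the same omission gave 0 calls. The A1 contrast, with 1219 calls in all and 0 in the family, gave 2985 and 2 with an intensity trend in the variance, where Gtf2i 1460279_a_at (limma adjusted p = 0.0082) and Gtf2ird1 1451899_a_at (0.0207) were called, and 2355 and 1 over probe sets with a mean of 6 or more, where 1460279_a_at was called (0.0269). Calls for levels between clones, 509 in all, were 1026 without induction as a covariate and 108 over probe sets with a mean of 6 or more. Small differences changed sign: Gtf2i 1425628_a_at was -0.0694 with array weights and -0.0042 with arrays centred on their medians, and Gtf2ird2 was -0.013 with centred arrays. With 1 array or clone left out, the difference ran between -0.17 and 0.18 for Gtf2i 1425628_a_at, -0.44 and 0.0093 for Gtf2ird1 1451899_a_at, -0.19 and 0.0379 for 1460364_at, and -0.0714 and 0.10 for Gtf2ird2, and it stayed below 0 for the other Gtf2i probe sets (-0.52 to -0.08 for 1460279_a_at). With the block, leaving out A1 or B3 gave -0.0594 or -0.0363 for 1425628_a_at, and leaving out B3 or C6 gave -0.0714 or -0.0237 for Gtf2ird2. Counts then ran between 0 and 981 in all and 0 and 1 in the family. The causes were not tested.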
